A study of Mus musculus with 74 samples.

Results

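The hindstomach, the glandular part of the mouse stomach, was followed between embryonic day 14 (E14) and embryonic day 16 (E16) in 4 RNA-seq libraries, 2 per stage. They are the wild-type hindstomach libraries of those stages by title, 4 of the 31 RNA-seq libraries and of the 74 samples in the series. The series profiled gut epithelium across organs and stages, and asked how intestinal and gastric identity are set up; its samples with conditional loss of the intestinal factor Cdx2 enter here only as further libraries of the fit, where they bear on filtering, scaling and the estimate of spread. Each group used here was CD1 wild type with no allele or treatment added: hindstomach at E12, E14 and E16, and, for comparison, forestomach (the squamous part of the stomach) and small intestine at E14 and E16, each with 2 libraries. Per the labels' protocols, all of them were digested with trypsin, sorted for the epithelial surface protein Epcam and amplified with a low-input kit. The labels do not say whether the 2 libraries of a stage came from separate embryos or pools. The p-values rest on the spread within groups, estimated over all 27 embryonic libraries of the fit, and that spread may be technical.

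In the mouse, the hindstomach epithelium is a simple tube of dividing progenitors that buds into glands in the last part of gestation. The glands come to hold surface mucous (pit) cells, mucous neck cells, enzyme-secreting chief cells, acid-secreting parietal cells, hormone-secreting endocrine cells and rare chemosensory tuft cells. Acid and enzyme output mature mostly after birth, and in suckling rodents chymosin clots milk before pepsin takes over.

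The 4 hindstomach libraries held 18446460 to 21910062 counts. Levels are given as CPM, counts scaled to a common library total by TMM, with no correction for transcript length, replicate 1 first. Epcam stood at 752 and 737 CPM at E14 and 421 and 400.4 CPM at E16, and Cldn18, a tight junction protein whose stomach form marks gastric epithelium, stood at 300.3 and 262 CPM at E14 and 469 and 446 CPM at E16. Cldn18 was at 13.4 and 13.1 CPM in forestomach and 5.702 and 4.58 CPM in small intestine at E14, so a defining marker of the labelled tissue was present and set it apart. Across all genes, 17239 of 24015 listed were tested with edgeR, and a gene counts as called at a Benjamini-Hochberg adjusted p under 0.05 together with a log2 fold change of 1 or more up or down. By that rule 3796 genes, 22.0% of those tested, differed between the stages: 2848 were higher at E16 (16.5%) and 948 lower (5.50%). Without E14 replicate 1 the number was 2467. The median log2 fold change over all tested genes was 0.05, and with DESeq2's size factors in place of TMM it was 0.18. In 77.3% of tested genes the 2 libraries of each stage did not overlap, so separation of the groups alone sets few genes apart. Of 10 pan-epithelial genes, 1 rose, 1 fell and 8 were not called; 2 rose without E14 replicate 1 or with a replicate block, and 3 with DESeq2 or its size factors in edgeR.

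Marker genes of cells other than epithelium were higher at E16, which bears on every gene group below that such cells also express. Summed over 61 markers of blood, mesenchyme, endothelium, immune cells, nerve and mesothelium, the share of all counts was 0.0326 and 0.0345% in the E14 libraries and 1.34 and 1.47% in the E16 libraries. All 17 mesenchyme and muscle markers, all 7 endothelial and all 11 immune markers rose, as did 7 of 9 nerve and glia markers, 5 of 6 tested red blood cell markers and 3 of 5 mesothelial markers. None of these lists had a called fall, where 16.5% of all tested genes were called higher and 5.50% lower. Without either E14 library, 4 of 7 endothelial and 1 of 5 mesothelial markers passed, as did 1 mesothelial marker without E16 replicate 2. Mesenchyme and muscle genes made up most of that share, at 0.969 and 1.02% of counts at E16. Immediate early and heat shock genes, which respond to tissue dissociation, also moved: 15 of 17 rose, and their summed share was 0.721 and 0.729% at E14 and 2.54 and 2.49% at E16. In bulk libraries, fewer cells of a type and less RNA per cell cannot be told apart.

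**Figure D1:**
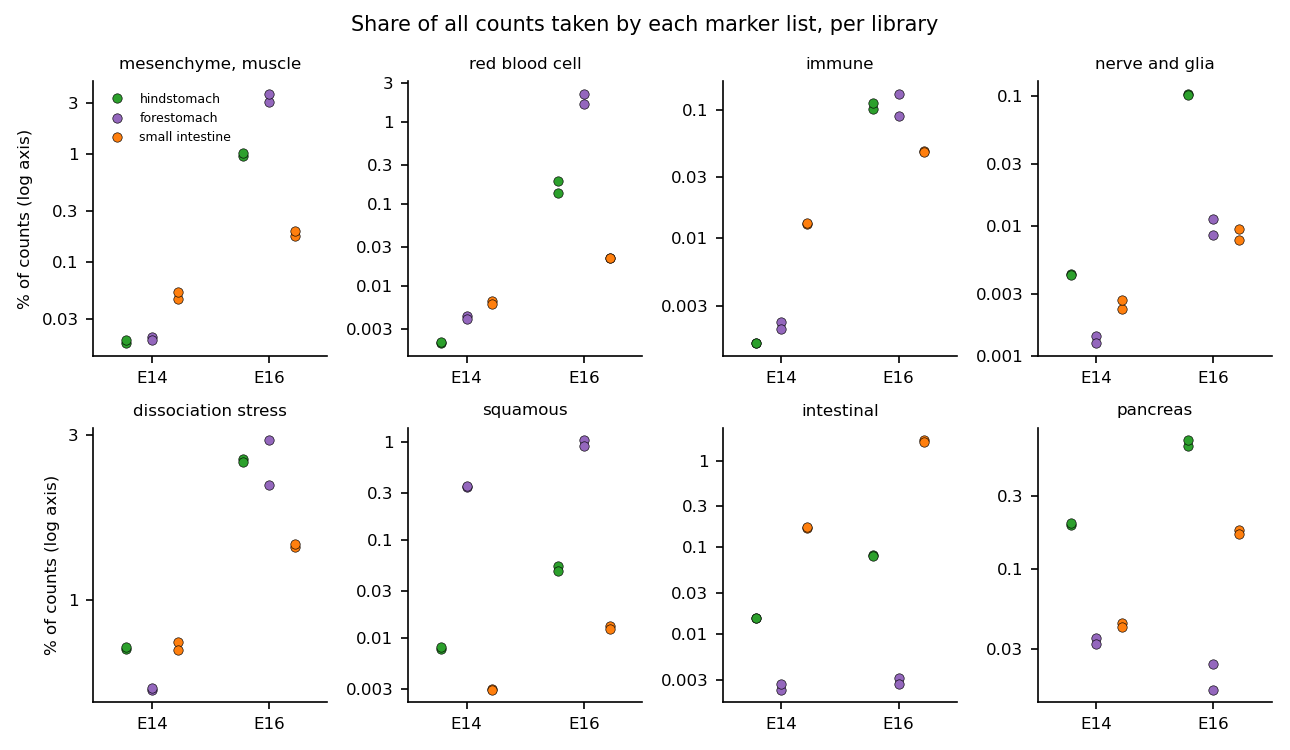
Share of all counts, in percent on a log axis, taken by each of 8 marker lists in single libraries of hindstomach (green), forestomach (purple) and small intestine (orange) at E14 and E16, with 1 point per library. In each of the 8 panels both hindstomach points at E16 lie above both at E14, and the mesenchyme and blood shares at E16 are highest in forestomach.

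Digestive enzyme genes of chief cells rose, and the chymosin gene had the largest gain in CPM of any gene tested. Cym, which encodes chymosin, the milk-clotting protease, stood at 1063 and 1129.8 CPM at E14 and 23161 and 21766 CPM at E16 (log2 fold change 4.36, SE 0.32, adjusted p by edgeR 1.12e-08). Both E16 libraries were far above both E14 libraries, and at E12 the gene had 8 and 0 counts. Cym alone took 0.138 and 0.147% of all counts at E14 and 2.83 and 2.64% at E16. The pepsinogen C gene Pgc was at 5.89 and 7.75 CPM at E14 and 247 and 217 CPM at E16 (log2 fold change 5.09, SE 0.36, adjusted p by edgeR 1.21e-08). Pga5, which encodes a pepsinogen of the A type, was at 6.703 and 7.86 CPM at E14 and 337 and 321 CPM at E16 (log2 fold change 5.50, SE 0.50, adjusted p by edgeR 4.21e-07). Gif, the gene of the vitamin B12 carrier intrinsic factor that rodent chief cells make, was at 0.494 and 0.714 CPM at E14 and 144 and 153 CPM at E16 (log2 fold change 7.93, SE 0.69, adjusted p by edgeR 7.26e-07). These 3 genes were low in both E14 libraries and far higher in both E16 libraries. Of the 8 chief cell genes tested, 5 rose and 0 fell, where 16.5% of all tested genes rose and 5.50% fell. The list's median log2 fold change was 3.16 against 0.05 over all genes. The fifth riser was Nucb2, the precursor of nesfatin (log2 fold change 1.31, edgeR adjusted p 0.000923). Bhlha15, the secretory cell factor Mist1, was at 15.03 and 14.2 CPM at E14 and 59.7 and 54.6 CPM at E16 and did not pass (log2 fold change 1.97, edgeR adjusted p 0.0529), though it did with DESeq2 (log2 fold change 2.10, adjusted p 0.0303), with its size factors in edgeR (adjusted p 0.0426) and with only the 4 hindstomach libraries in the fit (adjusted p 1.54e-05). Lipf, the gastric lipase gene, had 0 counts in all 4 libraries, so a level of up to 3 counts per library could have gone unseen.

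The proton pump of parietal cells and several of its partner channels rose together. Atp4a, the catalytic subunit of the gastric H,K-ATPase, was at 2.29 and 2.63 CPM at E14 and 329 and 324 CPM at E16 (log2 fold change 7.05, SE 0.68, adjusted p by edgeR 3.44e-07). Its beta subunit gene, Atp4b, was at 7.87 and 8.05 CPM at E14 and 282 and 326 CPM at E16 (log2 fold change 5.26, SE 0.45, adjusted p by edgeR 3.34e-07). For both subunits the E16 libraries lay above the E14 libraries without overlap. Of 22 parietal cell genes tested, 12 rose, 0 fell and 10 were not called, where 16.5% of all tested genes rose and 5.50% fell. The median log2 fold change of the list was 2.11, or 1.82 with the gene that was at 0 at E14 set to its bound. The potassium channel subunits of the apical membrane rose: Kcnq1 (log2 fold change 2.63, edgeR adjusted p 0.000574), Kcne2 (log2 fold change 3.65, edgeR adjusted p 0.00451) and Kcnj15 (log2 fold change 2.59, edgeR adjusted p 0.000677). So did the anion transporters Slc26a9 (log2 fold change 1.63) and Slc26a7, which had 1 and 0 counts at E14 and 50 and 86 at E16. The sodium-proton exchangers Slc9a2 (log2 fold change 3.17) and Slc9a4 (4.53), the carbonic anhydrase gene Car2 (1.57) and the muscarinic receptor gene Chrm3 (2.70) rose as well. Hrh2, the histamine receptor that stimulates acid secretion, had 0 counts in both E14 libraries and 16 and 4 counts at E16, at least 4.04-fold higher against a floor of 3 counts per library. Several parietal cell genes did not pass. The gastrin receptor gene Cckbr had a log2 fold change of -0.03, the basolateral anion exchanger Slc4a2 -0.11, the nuclear receptor Esrrg 0.24, ezrin (Ezr) 0.06, Clic6 0.04 and the water channel Aqp4 -1.37. Aqp4 was called lower with only the 4 hindstomach libraries in the fit (edgeR adjusted p 3.26e-05). Leaving out single libraries ended the call of Kcne2 (E14 replicate 1, edgeR adjusted p up to 0.0546), Slc26a9 (any of the 4, adjusted p up to 0.154), Slc26a7 (either E14 library or E16 replicate 2, adjusted p up to 0.135) and Chrm3 (E14 replicate 2, adjusted p up to 0.0596). The call was lost without single libraries for Hrh2 (either E14 library or E16 replicate 1, edgeR adjusted p up to 0.139). With the 20 wild-type libraries alone, Slc26a9 (adjusted p 0.0721) did not pass. With DESeq2, Slc26a7 (adjusted p 0.0692) and Hrh2 (adjusted p 0.188) did not pass.

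Most surface mucous genes rose, while the mucin that defines mature pit cells fell. Of 15 pit cell genes tested, 12 rose, 1 fell and 2 were not called, with a median log2 fold change of 3.32. Over all tested genes 16.5% rose and 5.50% fell, so the 1 faller lies near that share. The gastrokine genes encode small secreted proteins of the gastric surface. Gkn3 was at 0.953 and 1.02 CPM at E14 and 44.2 and 38.3 CPM at E16 (log2 fold change 5.38, SE 0.37, adjusted p by edgeR 4.56e-09), Gkn1 at 0.5998 and 0.263 CPM at E14 and 12.3 and 9.79 CPM at E16 (log2 fold change 4.65, SE 0.77, adjusted p by edgeR 0.000382) and Gkn2 at 0.988 and 1.28 CPM at E14 and 12.02 and 10.7 CPM at E16 (log2 fold change 3.32, SE 0.86, adjusted p by edgeR 0.00623). In each of the 3 both E16 libraries were above both E14 libraries. Psca, a surface glycoprotein of gastric mucosa, was at 1.66 and 2.74 CPM at E14 and 133 and 118 CPM at E16 (log2 fold change 5.84, SE 0.56, adjusted p by edgeR 3.17e-07). Dpcr1, a mucin-like membrane protein gene, was at 31.6 and 30.9 CPM at E14 and 455 and 371 CPM at E16 (log2 fold change 3.72, SE 0.48, adjusted p by edgeR 9.43e-06). Foxq1, a forkhead factor known to be needed for Muc5ac expression in the mouse stomach, was at 99.3 and 108 CPM at E14 and 511 and 487 CPM at E16 (log2 fold change 2.27, SE 0.20, adjusted p by edgeR 1.2e-07). Both stages were well above the detection limit for Dpcr1 and Foxq1, which were already expressed at E14. Sult1c2, a sulfotransferase (log2 fold change 5.92), the aspartic protease gene Ctse (2.88), the calpains Capn8 (3.22) and Capn9 (3.39) and the membrane mucin Muc1 (1.22) rose too. Muc5ac, the secreted gel-forming mucin of pit cells, moved the other way, at 27.1 and 24.3 CPM at E14 and 7.01 and 7.61 CPM at E16 (log2 fold change -1.81, SE 0.41, adjusted p by edgeR 0.00303). Its 2 E16 libraries were below both E14 libraries. Tff1, the pit cell trefoil peptide gene, had 0 counts in every hindstomach library. Vsig1 and Fut2 were not called (log2 fold changes 0.38 and 1.92), though Fut2 was with only the 4 hindstomach libraries in the fit (edgeR adjusted p 0.0014). Without E16 replicate 2 the log2 fold change of Capn9 was 2.07. Calls that did not hold when a library was left out were those of Gkn2 (E14 replicate 1, edgeR adjusted p up to 0.0667), Capn8 (either E14 library or E16 replicate 2, adjusted p up to 0.169) and Capn9 (E14 replicate 2 or E16 replicate 2, adjusted p up to 0.118). With the 20 wild-type libraries alone, Gkn2 (adjusted p 0.151), Muc5ac (adjusted p 0.11) and Capn8 (adjusted p 0.081) did not pass. With DESeq2, Gkn2 (adjusted p 0.0929) did not pass.

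Most mucous neck cell genes rose. Muc6, the gel-forming mucin of neck and deep gland cells, was at 0.741 and 0.564 CPM at E14 and 30.2 and 30.9 CPM at E16 (log2 fold change 5.54, SE 0.67, adjusted p by edgeR 6.09e-06). Tff2, the trefoil peptide packaged with it, was at 1.94 and 1.805 CPM at E14 and 57.5 and 53.5 CPM at E16 (log2 fold change 4.88, SE 0.45, adjusted p by edgeR 1.96e-07). A4gnt, the glycosyltransferase that caps the sugar chains of gland mucin, was at 0.247 and 0.301 CPM at E14 and 20.6 and 12.6 CPM at E16 (log2 fold change 5.90, SE 0.71, adjusted p by edgeR 2.61e-05). All 3 had low counts in both E14 libraries and did not overlap between stages. Of 6 genes of this list, 4 rose and 0 fell. The fourth was Glipr1 (log2 fold change 2.14). The chloride channel gene Cftr was not called (0.53), and the water channel gene Aqp5 had 0 counts in all 4 libraries. Over the 4 gland and surface lineages together, 32 of 50 tested genes rose and 1 fell. For these and the neck cell list, the shares of all tested genes were 16.5% higher and 5.50% lower. Markers of other cell types rose in the same libraries, as given above, and the part of such cells in the counts of gastric genes was not tested. Without single libraries the threshold was missed by Glipr1 (either E14 library, edgeR adjusted p up to 0.0684).

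**Figure D2:**
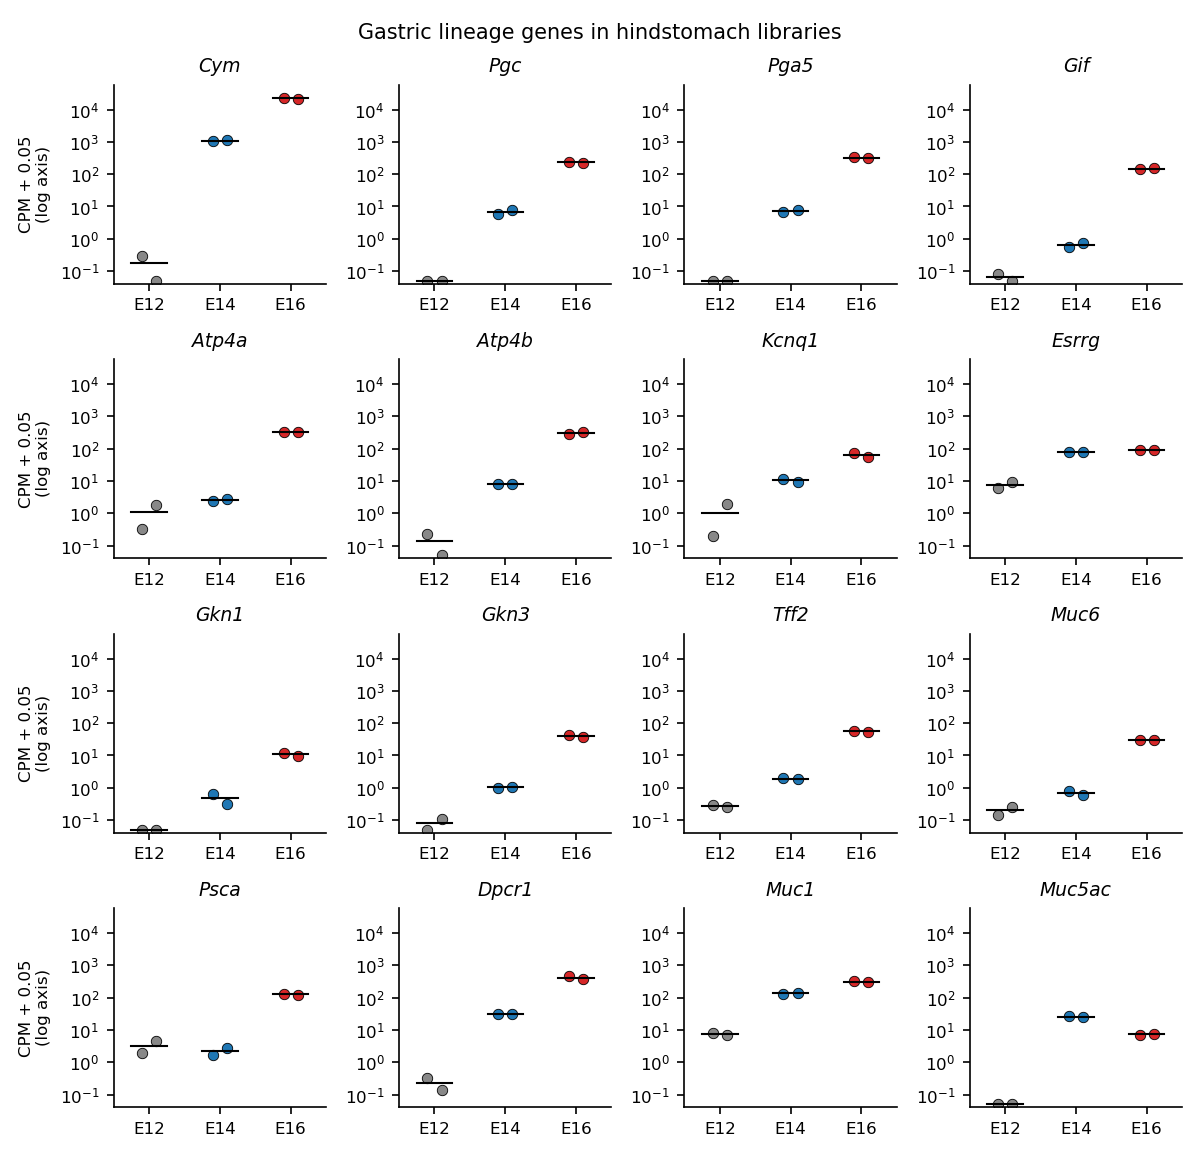
CPM plus 0.05 on a log axis for genes of chief, parietal, pit and neck cells in hindstomach libraries at E12, E14 and E16, with 1 point per library and a bar at the mean of the 2. Cym climbs from 1063 and 1129.8 CPM at E14 to 23161 and 21766 CPM at E16, whereas Muc5ac is lower at E16 than at E14.

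The start regions of the gene with the largest gain in CPM and of the clustered gastrokine genes are shown because Cym led the gains and the gastrokine genes, which lie side by side, all rose. The sequences are the 250 bases before the annotated start, from RefSeq on build GRCm38.p6, printed along the gene's own strand from 5′ to 3′. Capitals mark TATAAA, the TATA box core, and GATAA, the core bound by GATA factors, on either strand, so that TTATC is GATAA read on the opposite strand. Cym lies on chromosome 3 (chr3:107221733-107221982, minus strand). Gkn1 (chr6:87350916-87351165, minus strand), Gkn2 (chr6:87373115-87373364, plus strand) and Gkn3 (chr6:87388936-87389185, minus strand) start within 38 kb of each other on chromosome 6.
Cym: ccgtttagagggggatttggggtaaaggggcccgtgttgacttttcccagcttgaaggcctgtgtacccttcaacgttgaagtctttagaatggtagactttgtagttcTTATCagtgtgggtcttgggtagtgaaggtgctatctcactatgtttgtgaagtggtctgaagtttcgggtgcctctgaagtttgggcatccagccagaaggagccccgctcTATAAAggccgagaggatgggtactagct
Gkn1: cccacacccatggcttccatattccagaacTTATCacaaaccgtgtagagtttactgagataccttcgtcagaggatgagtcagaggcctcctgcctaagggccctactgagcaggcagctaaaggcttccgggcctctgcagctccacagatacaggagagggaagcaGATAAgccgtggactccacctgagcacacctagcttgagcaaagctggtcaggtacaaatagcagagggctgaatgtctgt
Gkn2: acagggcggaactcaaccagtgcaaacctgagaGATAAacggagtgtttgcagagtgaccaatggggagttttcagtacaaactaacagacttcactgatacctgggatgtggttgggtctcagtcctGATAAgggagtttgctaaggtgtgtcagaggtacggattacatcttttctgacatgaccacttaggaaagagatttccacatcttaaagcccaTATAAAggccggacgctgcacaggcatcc
Gkn3: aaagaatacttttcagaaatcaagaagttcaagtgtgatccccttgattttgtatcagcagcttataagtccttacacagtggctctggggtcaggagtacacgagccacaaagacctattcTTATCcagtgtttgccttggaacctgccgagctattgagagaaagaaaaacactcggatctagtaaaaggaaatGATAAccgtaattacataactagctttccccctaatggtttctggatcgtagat

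Cym and Gkn2 each hold TATAAA with its first base 29 bases before the start, and Gkn1 and Gkn3 hold none in this window. GATAA lies once in the Cym window and at 2 places in each gastrokine window. For scale, 32 gene members of the 4 gastric lineages were called higher, and 19 of them matched 21 RefSeq promoters. GATAA was in 8 of those 21 (38.1%) and in 22.6% of all 32851 promoters of the same length. TATAAA was in 5 (23.8%) and in 12.4% of all. AAGGTCA, a core of estrogen-related receptors, was in 0 of 21 and in 4.08% of all, and TGTTTAC, a forkhead core, in 0 of 21 and in 3.17% of all. Each motif was searched on both strands, and sites of different motifs can share bases at their ends. These shares are a description of letters in a window, with no test.

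Most hormone and amine synthesis genes rose, while more of the factors that specify endocrine cells fell than rose. Cartpt, which encodes the CART neuropeptide, was at 0.564 and 0.677 CPM at E14 and 227 and 201 CPM at E16 (log2 fold change 8.42, SE 0.57, adjusted p by edgeR 4.14e-09). Sst, the somatostatin gene of D cells, was at 0.6703 and 0.752 CPM at E14 and 67.4 and 49.1 CPM at E16 (log2 fold change 6.35, SE 1.15, adjusted p by edgeR 0.000363). Tac1, the precursor of substance P, was at 0.5998 and 0.602 CPM at E14 and 80.9 and 83.6 CPM at E16 (log2 fold change 7.09, SE 1.43, adjusted p by edgeR 0.00081). All 3 were below 1 CPM in both E14 libraries and well above it in both E16 libraries. Hdc, the histamine-forming enzyme of enterochromaffin-like cells, was at 0.212 and 0.0376 CPM at E14 and 27.1 and 35.2 CPM at E16 (log2 fold change 7.89, edgeR adjusted p 3.53e-07). Tph1, the serotonin-forming enzyme, rose with unequal replicates, at 0.141 and 0.188 CPM at E14 and 8.92 and 2.04 CPM at E16 (log2 fold change 5.02, edgeR adjusted p 0.00179). Ghrelin (Ghrl), the hunger hormone of X/A-like cells, was at 13.1 and 11.96 CPM at E14 and 39.4 and 55.5 CPM at E16 (log2 fold change 1.92, edgeR adjusted p 0.0126). Glucagon (Gcg) fell, at 174 and 190.2 CPM at E14 and 29.3 and 34.7 CPM at E16 (log2 fold change -2.51, SE 0.62, adjusted p by edgeR 0.00431), with both E16 libraries below both E14 libraries. Gastrin (Gast) was at 9.46 and 11.6 CPM at E14 and 26.00 and 21.3 CPM at E16 and did not pass (log2 fold change 1.17, edgeR adjusted p 0.3), except with only the 4 hindstomach libraries in the fit (edgeR adjusted p 0.00162). Of 12 hormone and amine synthesis genes, 7 rose, 1 fell and 4 were not called, and the median log2 fold change was 2.51. For this list and the granule list below, the shares of all tested genes were 16.5% higher and 5.50% lower. Neurotensin (Nts), with 1 count in each E14 library and 9 and 7 at E16, was the other riser, and Pyy, Cck and Ddc were the others not called. Of 14 granule and processing genes, 7 rose and 1 fell; without either E14 library or without E16 replicate 2, 0 fell. The risers included secretogranin genes Scg2 (log2 fold change 2.78) and Scg5 (2.88), the amine transporter Slc18a2 (2.63) and the synaptic vesicle genes Snap25 (4.63) and Syp (2.90). Chgb, chromogranin B, fell (log2 fold change -1.79, edgeR adjusted p 0.0191), and Chga was not called (0.75). Nerve cells also use several of these granule genes, and the 9 nerve and glia markers took 0.00423 and 0.00416% of counts at E14 and 0.104 and 0.102% at E16. Immune markers rose in these libraries too. The part of nerve and immune cells in the hormone and granule results was not tested. Leaving out single libraries ended the call of Ghrl (either E14 library or E16 replicate 2, edgeR adjusted p up to 0.0878), Nts (either E14 library or E16 replicate 1, adjusted p up to 0.089), Syp (any of the 4, adjusted p up to 0.123) and Chgb (either E14 library or E16 replicate 2, adjusted p up to 0.162). With DESeq2, Chgb (adjusted p 0.0587) did not pass.

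More endocrine transcription factors fell than rose. Neurog3, the factor that commits progenitors to the endocrine lineage, was at 91.02 and 88.7 CPM at E14 and 7.06 and 5.87 CPM at E16 (log2 fold change -3.80, SE 0.58, adjusted p by edgeR 7.32e-05). The E16 libraries held far less of it than either E14 library. Other factors of the endocrine programme fell with it: Neurod1 (log2 fold change -2.59), Nkx2-2 (-2.97), Pax4 (-3.40), Rfx6 (-2.25) and Rfx3 (-1.64). Hhex, a homeobox factor of foregut endoderm, also fell (-1.12). Etv1, an ETS family factor, was at 14.01 and 12.7 CPM at E14 and 203 and 178 CPM at E16 (log2 fold change 3.83, SE 0.35, adjusted p by edgeR 1.75e-07). Of 19 factors, 2 were called higher and 7 lower, where 16.5% of all tested genes were higher and 5.50% lower. The median log2 fold change of the list was -1.64. Without any 1 of the 4 libraries only 1 factor was called higher, and without E16 replicate 2 only 4 were called lower, whereas 12 were called lower with only these 4 libraries in the fit, Pax6 among them (edgeR adjusted p 0.000217). Insm1, Pax6, Isl1, Fev, Myt1 and St18 were among those not called, with log2 fold changes from -1.70 to -0.08. At E12 Neurog3 was at 0 CPM in both libraries, so among these stages its level was highest at E14. Pancreatic genes took 0.195 and 0.1998% of counts at E14 and 0.641 and 0.694% at E16. The part of pancreatic RNA in the falls of these endocrine factors, of Gcg and of Pdx1 was not tested. The call was lost without single libraries for Neurod1 (any of the 4, edgeR adjusted p up to 0.178), Pax4 (E16 replicate 2, adjusted p up to 0.0617) and Rfx3 (E16 replicate 2, adjusted p up to 0.0518). With DESeq2's size factors in edgeR, Hhex (log2 fold change -0.98) did not pass.

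Tuft cell genes were higher at E16. Dclk1, a kinase gene much used as a tuft cell marker, was at 0.494 and 0.113 CPM at E14 and 56.4 and 40.7 CPM at E16 (log2 fold change 7.28, SE 0.92, adjusted p by edgeR 7.88e-06). Trpm5, the taste transduction channel, was at 1.02 and 0.564 CPM at E14 and 16.5 and 16.6 CPM at E16 (log2 fold change 4.37, SE 1.06, adjusted p by edgeR 0.00387). Ptgs1, a prostaglandin synthase, was at 2.15 and 2.41 CPM at E14 and 28.1 and 31.7 CPM at E16 (log2 fold change 3.71, SE 0.39, adjusted p by edgeR 9.78e-07). In these 3 genes the stages did not overlap, and at E12 Dclk1 was at 3.94 and 3.29 CPM. Alox5ap, needed for leukotriene synthesis, was at 0.141 and 0.188 CPM at E14 and 24.98 and 25.4 CPM at E16 (log2 fold change 7.22, edgeR adjusted p 4.03e-05). Chat, the acetylcholine-forming enzyme, had 0 counts in both E14 libraries and 72 and 36 counts at E16, at least 21.8-fold higher against a floor of 3 counts per library. Of 13 genes tested, 10 rose and 0 fell, where 16.5% of all tested genes rose and 5.50% fell. The list's median log2 fold change was 6.39, or 4.37 with genes at 0 at E14 set to their bound. Without either E14 library, 6 passed in place of 10. The master regulator of tuft cells, Pou2f3, was at 0.5998 and 0.564 CPM at E14 and 1.69 and 1.09 CPM at E16 and did not pass (log2 fold change 1.25, edgeR adjusted p 0.49), nor did Avil (2.44) or the taste G protein Gnat3 (1.57). Avil passed with only the 4 hindstomach libraries in the fit (edgeR adjusted p 0.00845). Alox5 and Alox5ap are also genes of blood cells, and Dclk1 and Chat of nerve cells; immune markers took 0.00152 and 0.00153% of counts at E14 and 0.102 and 0.114% at E16. Their part in this list's count was not tested. Calls that did not hold when a library was left out were those of Trpm5 (E14 replicate 2, edgeR adjusted p up to 0.0569) and Chat (either E14 library or E16 replicate 1, adjusted p up to 0.115). With DESeq2, Chat (adjusted p 0.0742) did not pass.

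**Figure D3:**
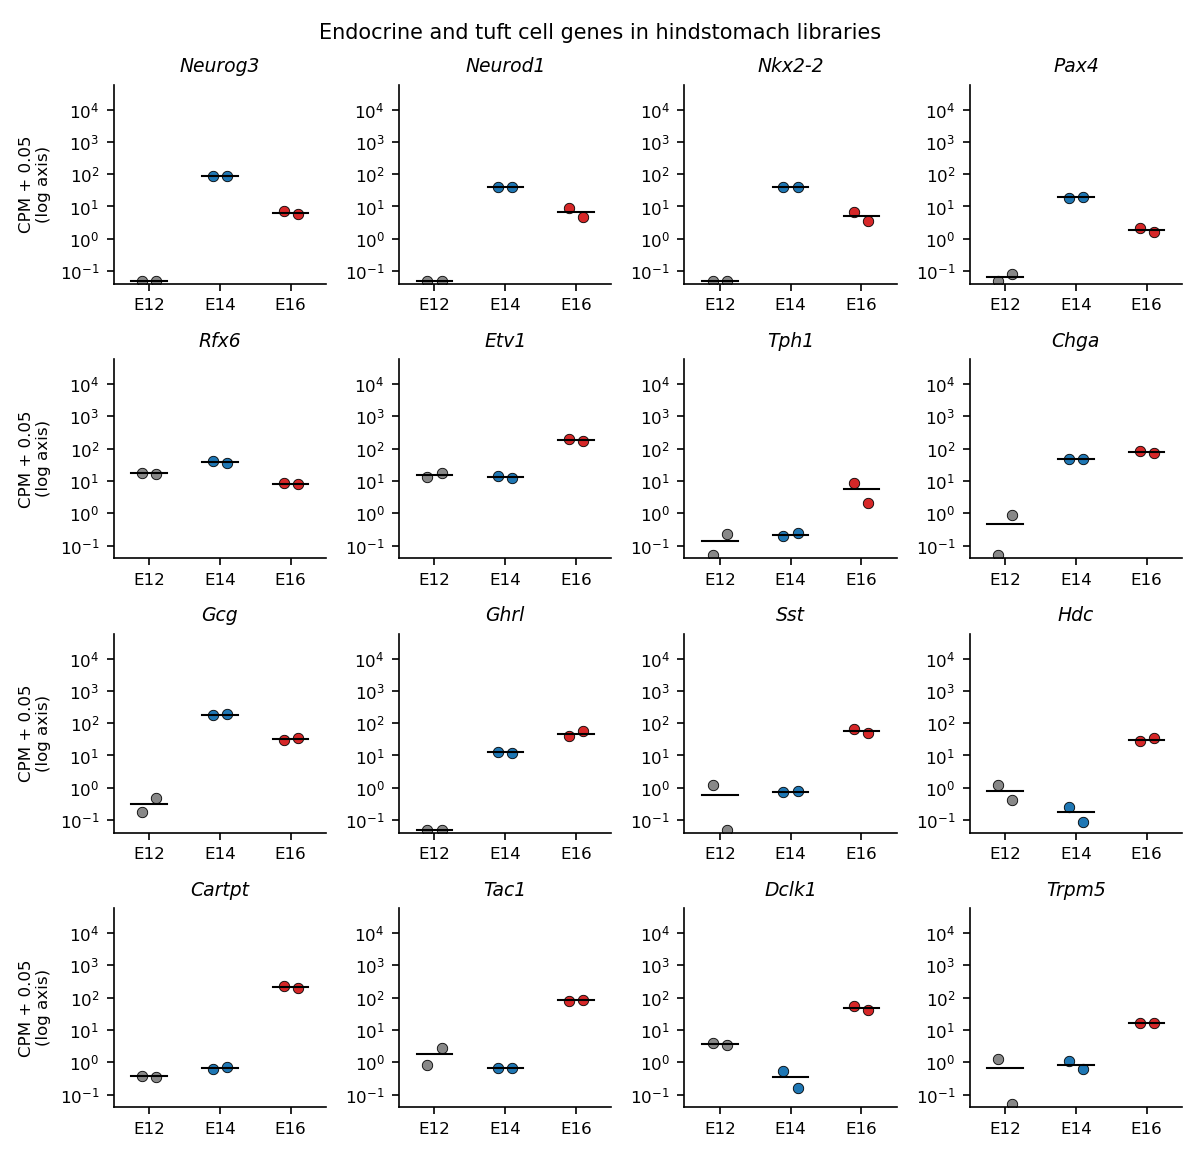
CPM plus 0.05 on a log axis for endocrine and tuft cell genes in hindstomach libraries at E12, E14 and E16, with 1 point per library and a bar at the mean of the 2. Hormone and amine genes such as Cartpt and Sst are high only at E16 among the stages drawn, whereas Neurog3 and Gcg peak at E14.

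Genes linked to gastric stem and progenitor cells did not move one way. Of 16 tested, 4 rose, 4 fell and 8 were not called; 2 rose without E14 replicate 2 or E16 replicate 1, and 2 fell without E14 replicate 1 or E16 replicate 2. The share of all tested genes was 16.5% higher and 5.50% lower, and whether 4 of 16 in either direction exceeds these shares was not tested. Olfm4, a secreted glycoprotein of gut stem cells, was at 2.75 and 2.71 CPM at E14 and 62.8 and 70.2 CPM at E16 (log2 fold change 4.60, SE 0.37, adjusted p by edgeR 3.83e-08). Smoc2, a matrix protein of stem and stromal cells, was at 21.2 and 20.9 CPM at E14 and 157 CPM in both E16 libraries (log2 fold change 2.90, SE 0.22, adjusted p by edgeR 2.12e-08). Lgr5, the receptor that marks antral stem cells, was at 20.7 and 20.98 CPM at E14 and 43.04 and 27.7 CPM at E16 and did not pass (log2 fold change 0.76, edgeR adjusted p 0.0716). Olfm4 and Smoc2 separated fully by stage, and the 2 E16 libraries differed among themselves for Lgr5, which passed without E16 replicate 2 (log2 fold change 1.05, edgeR adjusted p 0.0493). Cd44 (log2 fold change 1.90) and Lrig1 (1.01) rose. Lgr4, another receptor for R-spondins, fell (-1.52), as did the Wnt target Axin2 (-1.45), the progenitor factor Sox2 (-1.48) and the proliferation gene Iqgap3 (-1.38). Sox9, Runx1, Tnfrsf19 and Prom1 were not called. Genes of neutrophils rose in the same libraries, as given below, and the part of such cells in the rise of Olfm4 was not tested. Without single libraries the threshold was missed by Cd44 (any of the 4, edgeR adjusted p up to 0.106), Lrig1 (E14 replicate 2 or E16 replicate 1, log2 fold change 0.86), Axin2 (any of the 4, adjusted p up to 0.148) and Sox2 (E14 replicate 1 or E16 replicate 2, adjusted p up to 0.0984). With the 20 wild-type libraries alone, Cd44 (adjusted p 0.0524) did not pass. With only these 4 libraries in the fit, Lrig1 (log2 fold change 0.97) did not pass. With DESeq2's size factors in edgeR, Axin2 (adjusted p 0.0665) did not pass.

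Transcription factors of the gastric epithelium were mostly not called: 4 of 30 rose, 6 fell and 20 did not pass, and 2 rose without E14 replicate 1 or E16 replicate 2. Of all tested genes 16.5% were called higher and 5.50% lower, so the risers lie near the share of all genes and the fallers above it. Foxa2, a pioneer factor of endoderm, was at 74.8 and 82.9 CPM at E14 and 13.6 and 10.05 CPM at E16 (log2 fold change -2.74, SE 0.33, adjusted p by edgeR 4.22e-06). Pdx1, a homeobox factor of the antrum and pancreas, was at 32.6 and 31.4 CPM at E14 and 7.54 and 9.27 CPM at E16 (log2 fold change -1.93, SE 0.43, adjusted p by edgeR 0.00196). Sox2, which marks stomach progenitors, was at 92.3 and 68.2 CPM at E14 and 32.4 and 25.1 CPM at E16 (log2 fold change -1.48, SE 0.42, adjusted p by edgeR 0.0116). Each of these 3 was lower in both E16 libraries than in either E14 library. Nkx6-2 (log2 fold change -2.22) and Prox1 (-1.85) fell as well. Besides Foxq1, the risers were the epithelial differentiation factors Klf4 (1.05) and Elf3 (1.55) and the secretory pathway factor Creb3l1 (1.54). Gata4 (-0.49) and Gata6 (-0.15), which maintain glandular stomach identity, were not called, nor were Hnf4a (-0.04), Klf5 (0.06), Foxa1 (-0.58) and Spdef (0.76). Leaving out single libraries ended the call of Prox1 (E14 replicate 1 or E16 replicate 2, edgeR adjusted p up to 0.0932), Klf4 (E14 replicate 1 or E16 replicate 2, log2 fold change 0.88) and Creb3l1 (any of the 4, adjusted p up to 0.172). With the 20 wild-type libraries alone, Creb3l1 (adjusted p 0.0683) did not pass.

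In the Hedgehog pathway the ligand gene Shh fell while 5 genes of the response side rose. Shh, an epithelial ligand that signals to the surrounding mesenchyme, was at 42.8 and 51.7 CPM at E14 and 12.6 and 12.96 CPM at E16 (log2 fold change -1.88, SE 0.27, adjusted p by edgeR 3.47e-05). Its relative Ihh was not called (-0.37). The transcription factors that carry the signal rose, Gli1 at 0.353 and 0.414 CPM at E14 and 8.297 and 7.22 CPM at E16 (log2 fold change 4.32, edgeR adjusted p 0.0216), with Gli2 (log2 fold change 3.82) and Gli3 (1.40). The co-receptors Gas1 (2.67) and Boc (3.48) rose, and the receptors Ptch1 (-0.38) and Smo (-0.56) were not called. In the gut wall the Gli and co-receptor genes are mainly mesenchymal, and the mesenchyme and muscle share in the same libraries was 0.0178 and 0.0193% at E14 and 0.969 and 1.02% at E16; its part in these changes was not tested. Of 13 genes of the pathway, 5 rose and 1 fell, and 3 rose without either E14 library, where 16.5% of all tested genes rose and 5.50% fell. The call was lost without single libraries for Gli1 (either E14 library or E16 replicate 1, edgeR adjusted p up to 0.142) and Gli2 (either E14 library, adjusted p up to 0.108).

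Of 20 Notch pathway genes 1 rose, 2 fell and 17 were not called, where 16.5% of all tested genes rose and 5.50% fell. Hes1, the main Notch target in gut epithelium, was at 164 and 178 CPM at E14 and 64.6 and 62.1 CPM at E16 (log2 fold change -1.43, SE 0.32, adjusted p by edgeR 0.00185). The ligand Dll1 fell too (log2 fold change -1.16, edgeR adjusted p 0.00329), and the target Hey2, with 0 and 7 counts at E14 and 127 and 110 at E16, rose (log2 fold change 5.27, edgeR adjusted p 0.0265). Among the others were Notch1 (-0.76), Notch2 (-0.55), Jag1 (-0.09) and Atoh1 (2.93). The list's number called higher was 1, with 0 to 2 when a library was left out, 4 with DESeq2 and 6 with only these 4 libraries in the fit, where Atoh1 passed (edgeR adjusted p 0.0197). Without E14 replicate 2 the log2 fold change of Hey2 was 9.97, since E14 replicate 1 had 0 counts. For Atoh1 it was 5.16 without E14 replicate 2 and 2.08 without E14 replicate 1. Calls that did not hold when a library was left out were those of Hey2 (E14 replicate 1 or either E16 library, edgeR adjusted p up to 0.174).

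Of 41 Wnt pathway genes, 11 rose and 9 fell, with 7 risers without either E14 library. Of all tested genes 16.5% rose and 5.50% fell. Wnt7b, the ligand with the largest fall among those not at 0, was at 39.5 and 41.7 CPM at E14 and 3.33 and 0.435 CPM at E16 (log2 fold change -4.43, SE 0.68, adjusted p by edgeR 0.000132). The Frizzled receptors fell or did not pass: Fzd2 (log2 fold change -1.08), Fzd3 (-1.13), Fzd5 (-1.56) and Fzd7 (-1.43) were called lower. Fzd10 and Wnt9b had 0 counts in both E16 libraries, after 17 and 12 counts of Fzd10 and 18 and 13 counts of Wnt9b at E14, at least 3.99-fold and 4.26-fold lower against 3 counts per library. Sfrp5, a secreted inhibitor of the stomach and duodenal epithelium, fell (-1.69). The secreted inhibitors Sfrp1 and Sfrp2 rose, Sfrp1 at 12.4 and 15.3 CPM at E14 and 135 and 155 CPM at E16 (log2 fold change 3.39, edgeR adjusted p 6.72e-08) and Sfrp2 at 3.07 and 3.46 CPM at E14 and 83.3 and 82.04 CPM at E16 (log2 fold change 4.66, edgeR adjusted p 7.62e-10). The ligands Wnt4 (2.80), Wnt5a (2.48) and Wnt11 (3.42) rose, as did the R-spondins, secreted enhancers of Wnt signals, Rspo2 (6.06) and Rspo3 (5.62). Of the nuclear effectors and feedback genes, Lef1 (2.05), Tcf7 (1.18) and Nkd1 (2.16) rose. The stroma also makes Wnt5a, Sfrp1, Sfrp2 and the R-spondins, and the mesenchyme share given above rose in the same libraries; its part was not tested. Without single libraries the threshold was missed by Fzd3 (E16 replicate 2, edgeR adjusted p up to 0.0598), Wnt9b (either E16 library, adjusted p up to 0.0707), Rspo2 (any of the 4, adjusted p up to 0.151) and Lef1 (either E14 library or E16 replicate 1, adjusted p up to 0.0888). Leaving out single libraries ended the call of Tcf7 (either E14 library or E16 replicate 2, edgeR adjusted p up to 0.113) and Nkd1 (either E14 library or E16 replicate 1, adjusted p up to 0.088). With DESeq2's size factors in edgeR, Fzd2 (log2 fold change -0.94) and Fzd3 (log2 fold change -0.99) did not pass.

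In the BMP list 5 of 22 rose, and without E14 replicate 1 and E14 replicate 2 in turn 1 and 2 rose. Over all tested genes 16.5% rose and 5.50% fell, so 5 higher and 2 lower of 22 lie near the shares of all genes. With only the 4 hindstomach libraries in the fit, 9 rose. The risers were the ligands Bmp2 (2.12), Bmp3 (3.77) and Bmp4 (4.84), Smad9 (2.92) and the inhibitor Grem1, which had 0 and 1 counts at E14 and 96 and 60 at E16. Bmp7 (-1.09) and the target Id4 (-1.25) fell, and the other targets Id1, Id2 and Id3 were not called. The call was lost without single libraries for Bmp2 (any of the 4, edgeR adjusted p up to 0.117), Bmp3 (either E14 library, adjusted p up to 0.0595), Smad9 (E14 replicate 1, adjusted p up to 0.0675) and Grem1 (either E14 library, adjusted p up to 0.112). Calls that did not hold when a library was left out were those of Bmp7 (E14 replicate 2 or E16 replicate 2, log2 fold change -0.99). With the 20 wild-type libraries alone, Bmp2 (adjusted p 0.053) did not pass. With DESeq2's size factors in edgeR, Bmp7 (log2 fold change -0.96) did not pass.

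**Figure D4:**
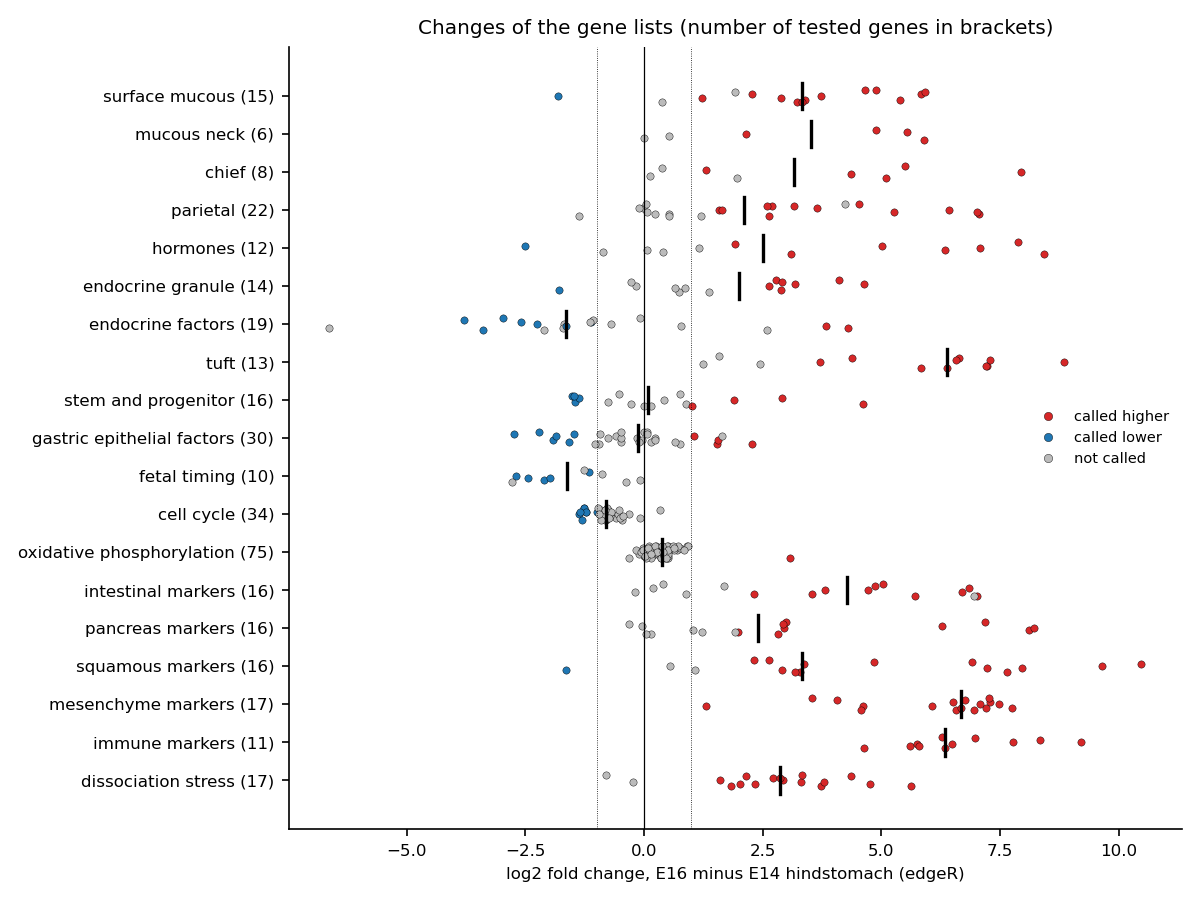
Log2 fold change of E16 minus E14 hindstomach (edgeR) on the horizontal axis for each tested member of the gene lists, 1 point per gene, with genes called higher in red, called lower in blue and not called in grey. The gastric and tuft cell lists lie mostly right of 0, and the cell cycle, fetal timing and endocrine factor lists mostly left of it.

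Of 19 claudin genes, 4 rose and 3 fell, and 2 rose without E14 replicate 2; of all tested genes 16.5% rose and 5.50% fell. Cldn6, a claudin typical of embryonic epithelium, was at 488 and 548 CPM at E14 and 65.4 and 59.9 CPM at E16 (log2 fold change -3.05, SE 0.24, adjusted p by edgeR 3.76e-08), with both E16 libraries far below both E14 libraries. Cldn9 (log2 fold change -2.83) and Cldn3 (-1.32) fell too. Cldn2, which forms cation pores, was at 1.06 and 1.84 CPM at E14 and 34.7 and 31.8 CPM at E16 (log2 fold change 4.52, SE 0.58, adjusted p by edgeR 9.02e-06), and Cldn15 (4 and 2 counts at E14 and 136 and 288 at E16), Cldn1 (log2 fold change 4.01) and the endothelial Cldn5 (6.50) rose. Cldn18 was not called (0.70). Of 25 genes of protein secretion and mucin maturation, 4 rose and 0 fell, and 2 rose without E14 replicate 1; the 4 are close to the 16.5% of all tested genes called higher. They were Creb3l1, the stress sensor of mucous cells Ern2 (1.504), and the glycosyltransferases Galnt12 (1.16) and B3gnt3 (2.22), whereas Agr2 (1.07), Xbp1 (0.65) and Hspa5 (0.43) did not reach the fold minimum or the p threshold. With only the 4 hindstomach libraries in the fit 8 rose, Agr2 among them (edgeR adjusted p 3.14e-05). Without single libraries the threshold was missed by Cldn1 (any of the 4, edgeR adjusted p up to 0.205), Cldn5 (either E14 library, adjusted p up to 0.0838) and B3gnt3 (E14 replicate 1, adjusted p up to 0.0663). With DESeq2, B3gnt3 (adjusted p 0.0832) did not pass.

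Secreted defence genes included the gene with the next largest gain in CPM after Cym. Bpifb1, a secreted protein of the bactericidal/permeability-increasing family, was at 77.9 and 77.6 CPM at E14 and 3554 and 3270.0 CPM at E16 (log2 fold change 5.46, SE 0.24, adjusted p by edgeR 3.16e-10) and took 0.434 and 0.397% of counts at E16. Both E16 libraries stood apart from both E14 libraries. Duox2, an epithelial oxidase that makes hydrogen peroxide, had 1 and 0 counts at E14 and was at 9.14 and 7.79 CPM at E16. Its maturation factor Duoxa2 had 0 counts in both E14 libraries and 96 and 115 at E16, at least 42.4-fold higher against 3 counts per library. Of 21 genes tested, 10 rose and 1, Cxcl15 (-2.30), fell; 2 fell without E14 replicate 1 or E16 replicate 1. Of all tested genes 16.5% were called higher and 5.50% lower. Ltf, Lcn2 and Lyz2, which rose, are also genes of white blood cells. Ltf was at 0 at E14 and 163 and 204 CPM at E16, beside the rise of all 11 immune markers, whose part was not tested.

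Of 10 genes of fetal timing, 5 fell and 0 rose, where 5.50% of all tested genes fell, with a median log2 fold change of -1.62. Hmga2, a chromatin protein of fetal progenitors, was at 186 and 214 CPM at E14 and 39.00 and 34.97 CPM at E16 (log2 fold change -2.43, SE 0.21, adjusted p by edgeR 1.07e-07). Igf2bp1, a fetal RNA-binding protein, was at 113 and 117 CPM at E14 and 21.2 and 14.5 CPM at E16 (log2 fold change -2.69, SE 0.28, adjusted p by edgeR 1.13e-06). Igf2bp3 (-1.15), Trim71 (-1.98) and Nr6a1 (-2.10) fell as well, and Lin28b, at 4.798 and 6.39 CPM at E14 and 0 and 1.61 CPM at E16, did not pass (log2 fold change -2.79, edgeR adjusted p 0.105). Its log2 fold change was -1.80 without E16 replicate 1. It passed without E16 replicate 2, which held the only counts at E16 (log2 fold change -10.1, edgeR adjusted p 0.0128), and with only the 4 hindstomach libraries in the fit (edgeR adjusted p 0.0419). Of 15 imprinted growth genes, Mest (1.78), Nnat (2.93), Ndn (1.92) and Cdkn1c (1.05) rose, and Grb10 (-1.71), Peg3 (-2.40) and Peg10 (-2.77) fell. That is 4 higher, or 7 with DESeq2, and 3 lower, where 16.5% of all tested genes were higher and 5.50% lower. Igf2 (0.60) and H19 (-0.66) were not called.

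Proliferation genes were lower at E16, by small amounts. Of 34 cell cycle genes, 0 rose and 8 fell by at least the fold minimum; by adjusted p alone, 30 of 34 were lower, where 14.8% of all tested genes were. The median log2 fold change was -0.80. Mki67, the proliferation antigen, was at 141 and 112 CPM at E14 and 63.5 and 71.3 CPM at E16 (log2 fold change -0.91, SE 0.19, adjusted p by edgeR 0.00128), below the fold minimum except without E14 replicate 2 (log2 fold change -1.07, edgeR adjusted p 0.00263). Top2a, the mitotic topoisomerase, was at 334 and 308 CPM at E14 and 118 and 134 CPM at E16 (log2 fold change -1.35, SE 0.14, adjusted p by edgeR 7.41e-07). The E16 libraries were lower than the E14 libraries in both, yet each gene stayed well expressed. Ccnb1 (-1.27), Bub1 (-1.37) and Kif11 (-1.32) fell, and Ccnd1 (-0.09) and E2f1 (0.33) were not called. Of 9 inhibitors of the cycle, Cdkn2b (2.44), Cdkn2d (1.54) and Cdkn1c rose. Of 75 oxidative phosphorylation subunits, 1 was called higher and 0 lower, and by adjusted p alone 20 were higher where 20.5% of all tested genes were. Leaving out single libraries ended the call of Cdkn2b (E14 replicate 1, edgeR adjusted p up to 0.0677) and Cdkn2d (any of the 4, adjusted p up to 0.197). With no filter on low counts, Cdkn2d (adjusted p 0.065) did not pass. With the 20 wild-type libraries alone, Cdkn2d (adjusted p 0.0609) did not pass.

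Many epithelial markers of neighbouring organs also rose, to be read against 16.5% of all tested genes called higher and 5.50% lower. Squamous genes, which belong to the forestomach, took 0.00771 and 0.00797% of counts at E14 and 0.0545 and 0.0478% at E16, and 13 of 16 rose. Krt4, a keratin of squamous epithelium, was at 0.459 and 0.338 CPM at E14 and 85.6 and 75.7 CPM at E16 (log2 fold change 7.64, SE 0.83, adjusted p by edgeR 2.11e-06) in hindstomach and at 1310.0 and 1621 CPM in E16 forestomach. Trp63, the master factor of squamous epithelium, fell in hindstomach, at 7.55 and 7.93 CPM at E14 and 3.06 and 1.91 CPM at E16 (log2 fold change -1.64, SE 0.58, adjusted p by edgeR 0.0366). Krt4 and Trp63 thus moved in opposite directions. Intestinal genes took 0.0155 and 0.0154% and 0.0811 and 0.0796% of counts at the 2 stages, and 10 of 16 rose. Fabp1, a fatty acid carrier of enterocytes, was at 0.353 and 0.639 CPM at E14 and 63.8 and 64.7 CPM at E16 (log2 fold change 7.01, edgeR adjusted p 9.24e-08) against 1855 and 1813 CPM in E16 small intestine. Cdx2, the factor that defines intestinal epithelium, was not called, at 12.7 and 6.204 CPM at E14 and 12.1 and 13.05 CPM at E16, but passed without E14 replicate 1 (log2 fold change 1.02, edgeR adjusted p 0.0399). Pancreatic genes took 0.195 and 0.1998% and 0.641 and 0.694% of counts, and 9 of 16 rose, or 4 without either E14 library and 5 without E16 replicate 2. Pnliprp1, a lipase-related protein, was at 339.8 and 333 CPM at E14 and 2542 and 2678 CPM at E16 (log2 fold change 2.96, SE 1.04, adjusted p by edgeR 0.0335), and the elastase gene Cela2a at 0.811 and 1.39 CPM at E14 and 277 and 329.6 CPM at E16 (log2 fold change 8.10, SE 1.25, adjusted p by edgeR 0.000171). The acinar factor Ptf1a (0.03) and the carboxypeptidase gene Cpa1 (-0.05) were not called, at 9.81 and 15.9 CPM and 442 and 520.4 CPM at E16. Of 12 liver genes, 1 rose and 4 fell, where 16.5% of all tested genes rose and 5.50% fell. Whether cells of neighbouring tissue entered the libraries was not tested. The call was lost without single libraries for Trp63 (any of the 4, edgeR adjusted p up to 0.214) and Pnliprp1 (any of the 4, adjusted p up to 0.157). With DESeq2's size factors in edgeR, Trp63 (adjusted p 0.0562) did not pass. With DESeq2, Trp63 (adjusted p 0.199) did not pass.

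The largest fold changes were not gastric, among genes called between the stages with no overlap and a mean of at least 4 CPM over the 4 libraries. Among the 12 of these with the largest log2 fold change upward, 8 are genes of neutrophils and their precursors (Ngp, S100a9, S100a8, Ltf, Mpo, Camp, Lcn2 and Retnlg), and 1 is Y-linked. Ngp, a neutrophil granule protein, had 0 counts in both E14 libraries and was at 298 and 349 CPM at E16, at least 2958-fold higher. S100a9, a calcium-binding protein of neutrophils, went from 0 to 208 and 251 CPM, at least 2102-fold. Those 2 genes were also high in E16 forestomach, at 477 and 401 CPM and 301 and 243 CPM, and lower in E16 small intestine, at 5.54 and 5.68 CPM and 4.43 and 5.46 CPM. In the same set of genes the largest fall was that of the cartilage collagen gene Col2a1, at 73.7 and 82.9 CPM at E14 and 0 and 1.57 CPM at E16 (log2 fold change -6.63, SE 0.97, adjusted p by edgeR 3.9e-05), with a log2 fold change of -5.64 without E16 replicate 1 and -13.9 without E16 replicate 2, and Sall4, a fetal progenitor factor, fell as well (log2 fold change -6.04, edgeR adjusted p 3.56e-05). By difference in CPM, Lars2, the mitochondrial leucyl-tRNA synthetase gene, fell most, at 7666 and 7655 CPM at E14 and 456 and 534 CPM at E16 (log2 fold change -3.95, SE 0.82, adjusted p by edgeR 0.00104). Its E14 level was high in all 3 organs, at 8995 and 8340.0 CPM in forestomach and 3816 and 9151 CPM in small intestine. Behind Cym and Bpifb1, the largest gains in CPM were those of the stress genes Fos, Egr1 and Jun, the collagen gene Col3a1, Pnliprp1 and the actin regulator Tmsb4x.

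Y-linked genes separated the stages. Ddx3y, a Y-linked helicase gene, had 0 counts in both E14 libraries and was at 32.5 and 45.3 CPM at E16 and 21.7 and 45.5 CPM at E12. Eif2s3y, Kdm5d and Uty showed the same pattern, with 0 counts at E14 and 34.7 and 29.5 CPM, 12.7 and 11.7 CPM and 13.1 and 16.2 CPM at E16. The E14 forestomach and small intestine libraries had 0 counts of all 4 genes as well. Xist, expressed from the inactive X chromosome, was at 134 and 70.5 CPM at E14 and 34.96 and 37.3 CPM at E16 and was not called (log2 fold change -1.504, edgeR adjusted p 0.259), though it was called lower with the 20 wild-type libraries alone (edgeR adjusted p 0.0192) and with only the 4 hindstomach libraries (edgeR adjusted p 0.00231). Its log2 fold change was -0.97 without E14 replicate 1. The E14 libraries of the 3 organs thus carried no detectable Y-linked RNA, and sex of the embryos and stage cannot be told apart for genes that differ by sex.

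The rise of the gastric genes was compared with the change over the same days in forestomach and in small intestine, as the difference of log2 fold changes in the same fit. Against forestomach, 2032 genes differed (11.8% of those tested): 1282 changed more upward in hindstomach (7.44%) and 750 more downward (4.35%). That split depended on scaling, since DESeq2's size factors in edgeR gave 960 and 978 and the 20 wild-type libraries alone 1062 and 900. Against small intestine, 2255 differed (13.1%), 1580 upward (9.17%) and 675 downward (3.92%). Of the 50 gastric lineage genes, 18 changed more upward and 3 more downward than in forestomach, and 14 and 3 against small intestine. Pan-epithelial genes also differed from forestomach, 9 of 10 changing more upward in hindstomach with a median difference of 1.88. Their summed share of counts was 0.6400 and 0.638% at E14 and 0.8997 and 0.864% at E16 in hindstomach, and 0.603 and 0.609% and then 0.263 and 0.257% in forestomach; its part in the comparisons with forestomach below was not tested. The summed share of the 61 markers of other cell types at E16 was above the hindstomach values in forestomach and below them in small intestine: it was 4.91 and 5.97% in forestomach and 0.265 and 0.285% in small intestine.

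Cym was at a similar level in both stomach regions at E14 and far higher in hindstomach at E16. In forestomach it stood at 1269.5 and 1254 CPM at E14 and at 1517 and 1797 CPM at E16 (difference of log2 fold changes 3.96, SE 0.41, edgeR adjusted p 1.9e-06). In small intestine it went from 16.1 and 13.7 CPM to 109.6 and 115 CPM (difference of log2 fold changes 1.45, SE 0.40, edgeR adjusted p 0.0174). Thus its rise in hindstomach was larger than in either organ. Atp4b began at a similar level in forestomach, 9.84 and 12.1 CPM, and was at 12.97 and 13.3 CPM at E16 (difference of log2 fold changes 5.00, SE 0.58, edgeR adjusted p 2.23e-05), whereas small intestine had 0 CPM at E14 and 0 and 0.382 CPM at E16, too little for a comparison. Atp4a changed more upward in hindstomach than in forestomach (difference of log2 fold changes 2.66, SE 0.89, edgeR adjusted p 0.049). Its hindstomach log2 fold change was 7.05, so it rose in forestomach as well, and the median difference of the pan-epithelial genes was 1.88. In small intestine Atp4a went from 3.52 and 2.64 CPM to 0.352 and 1.201 CPM (difference of log2 fold changes 9.08, SE 0.96, edgeR adjusted p 2.97e-06). Pgc also changed more upward in hindstomach than in forestomach and small intestine, with differences of 2.75 and 8.07. It was at 2.16 and 2.602 CPM in forestomach and 0.252 and 0.7097 CPM in small intestine at E16.

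Of 15 pit cell genes tested, 4 changed more upward and 1 more downward than in forestomach, and 9 more upward than in small intestine. Over all tested genes these shares were 7.44%, 4.35% and 9.17%. Gkn3 stayed below 1 CPM in every forestomach library, too little for a comparison. Dpcr1 (difference of log2 fold changes 4.94, SE 0.77, edgeR adjusted p 0.000185), Foxq1 (difference of log2 fold changes 3.53, SE 0.28, edgeR adjusted p 1.23e-07) and Muc1 (difference of log2 fold changes 1.55, SE 0.35, edgeR adjusted p 0.00483, below the median of the pan-epithelial genes) changed more upward than in forestomach, and these 3 and Gkn3 more upward than in small intestine, with differences from 2.13 to 4.40. Psca was the exception. It rose more in forestomach, from 1.24 and 0.4699 CPM to 710.0 and 733 CPM (difference of log2 fold changes -3.91, SE 0.80, edgeR adjusted p 0.00215), whereas small intestine had at most 0.328 CPM of it in any library. Bpifb1 rose more in hindstomach than in forestomach, where it went from 50.1 and 47.4 CPM to 131 and 199 CPM (difference of log2 fold changes 3.70, SE 0.30, edgeR adjusted p 5.29e-07), and than in small intestine (difference of log2 fold changes 4.02, SE 0.38, edgeR adjusted p 3.32e-06). Of the 13 tuft cell genes, 1 changed more upward and 1 more downward than in forestomach, and 5 more upward than in small intestine. The forestomach counts lie near the shares of all tested genes, 7.44% upward and 4.35% downward. Against small intestine the upward share was 9.17%. Dclk1 was the 1 more upward than in forestomach (difference 4.84) and was among the 5 (difference 4.83). The summed share of the tuft cell genes at E16 was 0.0198 and 0.01901% of counts in hindstomach and 0.0234 and 0.0254% in forestomach. For Neurog3, the fall was larger than in small intestine (difference of log2 fold changes -2.95, SE 0.75, edgeR adjusted p 0.0113) and was not called different from forestomach (difference of log2 fold changes 1.10, SE 0.95, edgeR adjusted p 0.512). Shh fell less in hindstomach than in forestomach (difference of log2 fold changes 4.72, SE 0.46, edgeR adjusted p 1.08e-06) and than in small intestine (difference of log2 fold changes 2.72, SE 0.39, edgeR adjusted p 7.22e-05).

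**Figure D5:**
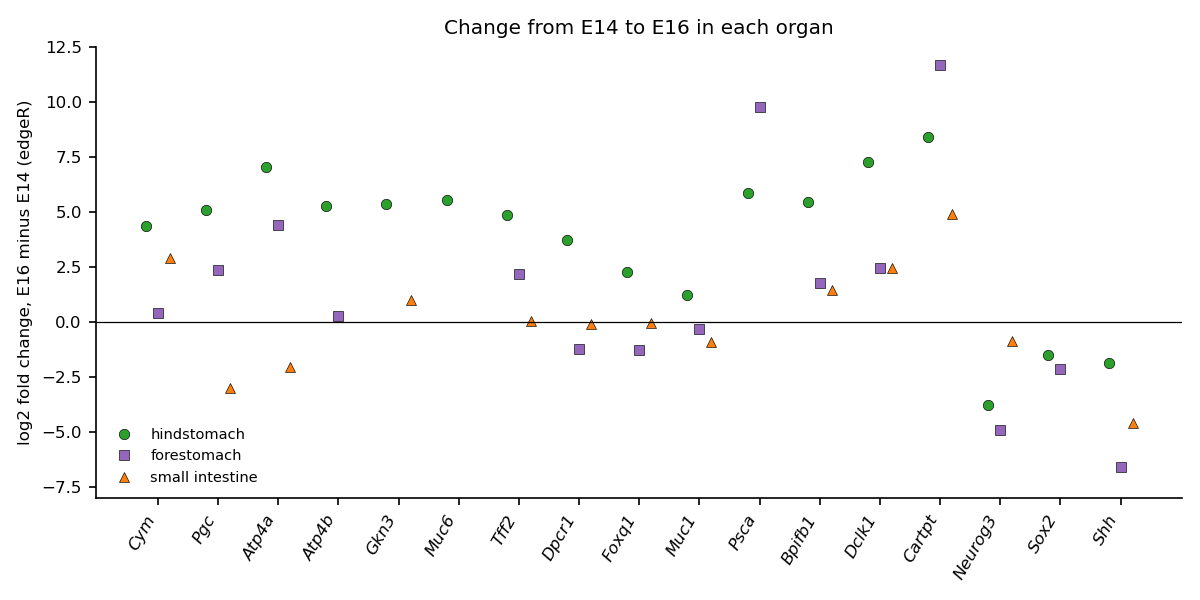
Log2 fold change of E16 minus E14 (edgeR) for 17 genes in hindstomach (green circles), forestomach (purple squares) and small intestine (orange triangles), each point from 2 libraries per stage. Cym, Pgc, Gkn3, Dpcr1, Foxq1 and Bpifb1 have their highest point in hindstomach, whereas Psca and Cartpt have it in forestomach. Points are left out where an organ's mean was below 1 CPM at both stages.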

How the data were processed

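RNA-seq of Epcam-sorted embryonic gut epithelium was analysed from a table of raw read counts, one line per gene symbol, which the authors deposited for the whole series without normalization. The submitters' processing notes name STAR 2.5.3a, HTSeq, Bowtie2, MACS2 and the build mm9 without saying which step each served; whether strand was used in counting is not given in the sources used here. Groups came from the sample titles. The table has 2 columns that match no sample here, and they were not used.

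Counts of 27 embryonic libraries in 13 groups, with 5970227 to 62463167 counts each, were fitted with edgeR 4.0.16 (quasi-likelihood test, TMM scaling, filterByExpr with a minimum count of 10) in R 4.3.3. Contrasts were E16 minus E14 in hindstomach, and its difference from the same contrast in forestomach and in small intestine. Genes were called at a Benjamini-Hochberg adjusted p below 0.05 and a log2 fold change of at least 1, and SE was taken from the fold change and its F value. The code was tested on simulated data. DESeq2 1.42.0 and other filters, samples and scalings were alternatives. Named genes were the members of gene lists, the 8 largest CPM differences per direction, and, among genes with a mean of at least 4 CPM over the 4 hindstomach libraries, the 12 largest log2 fold changes per direction without overlap and 6 per direction for each organ difference; a selection of them is described, and some are not reported here. Members and lists were chosen with earlier results of these data known. The symbols were compared with a gene name table, and 22709 matched. Promoters came from RefSeq. The ATAC-seq and ChIP-seq samples of the series were not analysed here.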

Additional observations from a re-analysis of the deposited data

Results flagged for a closer look

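A test of the difference between organs, in the same edgeR fit, singled out the following results, in which the change from E14 to E16 in hindstomach differed from the change in another organ. Against forestomach 2032 genes were called, and against small intestine 2255. All 3 organs were sampled with 2 libraries per stage, and the 2 comparisons share the hindstomach libraries.

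Genes with larger upward changes in hindstomach than in forestomach included Muc13, a membrane mucin (edgeR adjusted p 0.00255), the intestinal factor Cdx1 (0.000452), the trypsinogen gene Prss2 (0.00059), the amino acid transporter subunit Slc3a1 (0.0355) and Lrrc4c (0.0415). Muc13 was at 0.282 and 0.301 CPM at E14 and 31.02 and 37.1 CPM at E16 in hindstomach and 0 CPM in both libraries in E16 forestomach, and Cdx1 at 0.353 and 0.338 CPM at E14 and 9.54 and 10.9 CPM at E16 in hindstomach and 0 CPM in both libraries in E16 forestomach. Muc13, Cdx1, Prss2 and Slc3a1 stayed below 3 CPM in every forestomach library with 0 in both at E16, too little for the size of a change there to be measured. Insc (edgeR adjusted p 0.0443), Fgd5 (0.0267), the matrix gene Postn (2.25e-06), the interferon-induced Rsad2 (9.16e-05) and the neutrophil surface gene Cd177 (0.0345) differed in the other direction. Postn, which stromal cells express, reached 65.9 and 84.9 CPM in hindstomach and 135 and 183 CPM in forestomach at E16. Among the gastric and related genes, those with a difference from forestomach were Cym (edgeR adjusted p 1.9e-06), Pgc (0.0168), Atp4a (0.049), Atp4b (2.23e-05), Gkn3 (2.78e-05), Dpcr1 (0.000185), Foxq1 (1.23e-07), Muc1 (0.00483), Bpifb1 (5.29e-07), Dclk1 (0.00487), Muc6 (0.0305) and Shh (1.08e-06), all with the hindstomach change the more upward one, and Psca (0.00215), which rose more in forestomach. Muc6 and Gkn3 stayed below 1 CPM in every forestomach library, too little for a change there to be measured.

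Against small intestine, more upward changes in hindstomach were called for the secreted Wnt inhibitor Sfrp4 (edgeR adjusted p 0.000319), the homeobox gene Dlx1 (0.000764), Fam19a2 (0.000113), lactoferrin or Ltf (0.00133), Gpr133 (0.000802) and Amer3 (0.0159). Sfrp4 had 0 counts in both E14 hindstomach libraries, 20.99 and 20.2 CPM at E16, and 0 CPM in both libraries in E16 small intestine. Sfrp4, Dlx1, Gpr133 and Amer3 stayed below 1 CPM in every small intestine library, too little for a change there to be measured. The opposite was called for Ms4a8a (edgeR adjusted p 2e-09), the peptidase Mme (8.72e-06), Grin2c (0.0479), the glucose transporter Slc2a2 (4.7e-05), the phospholipase Pla2g10 (8.4e-06) and Spink4, a goblet cell gene (0.00288). Mme was at 20.4 and 22.5 CPM at E14 and 5.72 and 6.79 CPM at E16 in hindstomach and went from 1.18 and 1.42 CPM to 104 and 96.3 CPM in small intestine. The gastric and related genes with a more upward change in hindstomach than in small intestine were Cym (edgeR adjusted p 0.0174), Pgc (4.9e-08), Atp4a (2.97e-06), Gkn3 (1.65e-05), Dpcr1 (0.00386), Foxq1 (1.11e-05), Muc1 (0.000251), Psca (0.0128), Bpifb1 (3.32e-06), Dclk1 (0.00498), Tff2 (3.42e-05), Cartpt (0.0026) and Shh (7.22e-05). Neurog3 (0.0113) fell more in hindstomach than in small intestine. Sox2 was also called by the test (0.039), but it and Psca stayed below 1 CPM in all 4 small intestine libraries, too little for a change there to be measured.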

How the results depend on the processing

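Of 45 repeats of the 3 comparisons, 42 gave a number of called genes within 1.5 times the value reported, and so did 802 of 890 repeats of the list counts. Of 2675 repeats for 207 named genes, 152 lost the call and 25 gained it; in the other 2498 the gene stayed called in the same direction or stayed not called, and genes that were not called could change sign. No called gene changed sign. The list and named gene repeats cover only E16 against E14 in hindstomach. Calls of single genes in the organ differences were not followed through the repeats. Of the 161 named genes that were called, 47 lost the call without 1 hindstomach library and 22 under another setting. For hindstomach E16 against E14, leaving out single libraries gave 2467 to 3098 called genes in place of 3796, and no minimum fold gave 6081. For the difference from small intestine, the range without single libraries was 1559 to 1871, and fitting only the libraries compared gave 3813 in place of 2255. For the difference from forestomach the range was 1417 to 1972 in place of 2032. Fewer samples and a looser rule are built into these settings; other causes were not tested. With no minimum fold the share of calls that were higher was 58.1%, against 75.0%. DESeq2's size factors in edgeR moved the higher share of the difference from forestomach from 63.1 to 49.5%. Leaving the marker genes of other cell types and organs out of the scaling and the counts, an alternative chosen after seeing the data, gave 3711 called genes.

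Replicate numbers 1 and 2 are shared by the groups, but nothing in the labels ties equal numbers together, and the deviations of the 2 hindstomach stages from their means correlated with r of 0.02 over 17239 genes. A fit with a replicate block gave 3606, 1932 and 2097 called genes in the 3 comparisons, and among named genes that were called only Axin2 (edgeR adjusted p 0.0521) and Cldn1 (0.0552) did not pass with it. With 2 libraries per group, precision is limited by their number more than by counting, and genes with a few counts at one stage have uncertain fold changes.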
